A study of Mus musculus with 21 samples.

Results

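The genes described here are 33 genes of the unfolded protein response and the integrated stress response, out of 55418 gene symbols counted in whole mouse liver. They were taken by name from 4 roles: 14 chaperones and folding enzymes of the endoplasmic reticulum (ER), 4 genes of ER-associated degradation, 4 genes of stress sensing (Xbp1, Atf6, Ern1, Eif2ak3), and 11 genes of the ATF4 branch. The first 18 are called the ATF6/XBP1 arm below, and the last 11 the ATF4 arm. All 33 had enough reads to be tested.

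When unfolded proteins build up in the ER, the membrane sensors ATF6, IRE1 (encoded by Ern1) and PERK (encoded by Eif2ak3) respond. Cleaved ATF6, and XBP1 made from a messenger that IRE1 splices, switch on chaperones and degradation factors. PERK and related kinases phosphorylate eIF2alpha, which slows most translation but lets ATF4 be made, and ATF4 then switches on genes of amino acid supply, the factor CHOP (Ddit3) and a phosphatase subunit that ends the response. Hepatocytes secrete most plasma proteins and are rich in ER. Because ATF4 output is set by translation, ATF6 by cleavage and XBP1 by splicing, read counts per gene show the target genes of these factors but not their activity.

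The study crossed genotype with diet in whole livers perfused with PBS. WT mice were compared with mice labelled as having Mboat7 deleted in hepatocytes (KO). Mboat7 encodes an enzyme that attaches arachidonic acid to lysophosphatidylinositol, and the labels used here do not name the Cre driver or the deleted exons. Mice of the chow groups (6 WT, 7 KO) were 10 weeks old. The other mice (4 WT, 4 KO) began a diet labelled high fat, low in methionine and without choline (HFMCD; one label writes HFCDD) at an age of 6 to 8 weeks and stayed on it for 6 weeks. Diet therefore cannot be told apart from age or from the run of animal numbers, which does not overlap between the diets. Each library carries its own animal number, so p-values measure the spread between mice.

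Libraries held 17502231 to 25822972 counts. Levels are given as CPM, the counts of a gene relative to the normalised size of its library. Mboat7 itself (chromosome 7, 3677789 to 3693523, minus strand, GRCm38) stood at 36.2 CPM ± 2.72 (SD, n = 6) in chow-fed WT mice, against 21.3 CPM ± 1.77 (SD, n = 7) in the KO mice. On HFMCD the same values were 36.3 CPM ± 1.47 (SD, n = 4) and 18.9 CPM ± 2.24 (SD, n = 4). All KO libraries were below all WT libraries of their diet. Summed levels of 12 hepatocyte markers ran from 103800 to 155000 CPM over all libraries. Markers of gland mucosa summed to 33.4 to 132 CPM in KO chow replicates 1 and 7 and WT chow replicates 3 and 5, and to at most 9.93 CPM in the other libraries. Muscle markers summed to 1770 CPM in KO chow replicate 7 and to at most 9.98 CPM in the others.

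Promoters of several genes described below hold response elements, printed here from RefSeq promoter windows (GRCm38.p6, 250 bases before to 50 after the start of a gene, 300 in all) so that they can be read beside the values. The search covered both strands for 4 elements: the ER stress response element ERSE (CCAAT, any 9 bases, CCACG), its second form ERSE-II (ATTGG, any 1 base, CCACG), the element UPRE (TGACGTGG), and the C/EBP-ATF response element CARE (TGATG, any 1 base, AA). Capitals mark the element and each stretch runs 5′ to 3′ on the strand of its gene. Hspa5, Creld2, Calr and Syvn1 show ERSE in genes that were lower on HFMCD, and Canx shows the same element in a gene whose level was not called. Herpud1 holds CARE and ERSE-II, which do not overlap. Asns, Nupr1, Chac1 and Fgf21 show CARE in genes of the ATF4 arm.
Hspa5: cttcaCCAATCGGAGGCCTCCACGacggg
Creld2: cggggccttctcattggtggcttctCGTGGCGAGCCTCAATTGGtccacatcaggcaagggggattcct
Calr: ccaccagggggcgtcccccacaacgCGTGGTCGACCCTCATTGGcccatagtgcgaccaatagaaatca
Syvn1: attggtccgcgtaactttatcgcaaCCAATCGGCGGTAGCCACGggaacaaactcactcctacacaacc
Canx: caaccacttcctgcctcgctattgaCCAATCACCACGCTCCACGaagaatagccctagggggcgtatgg
Herpud1: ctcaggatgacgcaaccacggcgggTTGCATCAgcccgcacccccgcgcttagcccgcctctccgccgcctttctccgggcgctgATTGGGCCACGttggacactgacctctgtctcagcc
Asns: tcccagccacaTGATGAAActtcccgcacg
Nupr1: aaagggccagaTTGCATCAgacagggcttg
Chac1: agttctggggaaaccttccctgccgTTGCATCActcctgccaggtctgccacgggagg
Fgf21: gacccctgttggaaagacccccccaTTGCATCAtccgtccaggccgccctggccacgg

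The stretches lie at chr2:34772020-34772048 (Hspa5, plus strand), chr15:88819495-88819563 (Creld2, plus), chr8:84847050-84847118 (Calr, minus) and chr19:6046507-6046575 (Syvn1, plus). Those of Canx and Herpud1 lie at chr11:50325775-50325843 (minus) and chr8:94386292-94386412 (plus). The CARE stretches lie at chr6:7693214-7693243 (Asns, minus), chr7:126625562-126625591 (Nupr1, minus), chr2:119351024-119351081 (Chac1, plus) and chr7:45615597-45615654 (Fgf21, minus). Those of Hspa5, Asns and Nupr1 overlap an annotated exon, and the others overlap none.

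Of the 33 members, 30 matched the promoter table by symbol; Manf, Hyou1 and Atf6 had no entry. ERSE was found in 39 of 32851 promoters (0.119%) and in 8 members: Calr, Canx, Creld2, Dnajc3, Hsp90b1, Hspa5, Pdia6 and Syvn1. ERSE-II was found in 12 promoters (0.0365%), among them Herpud1 and, after the start, Dnajb11. CARE was found in 1304 promoters (3.97%) and in 6 members: Asns, Chac1, Fgf21, Nupr1, Trib3 (after the start) and Herpud1. UPRE was found in 222 promoters (0.676%) and in no member. A match is a run of letters in the window and not a measured binding site, and a window without the letters says nothing about the factor.

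On HFMCD, the ATF6/XBP1 arm was lower in both genotypes, and the ATF4 arm held genes called in both directions. In WT, 20 of 33 members fell and 4 rose between chow and HFMCD (edgeR, adjusted p under 0.05), against 33.6% of all 15677 tested genes that fell and 29% that rose. In KO, again 20 fell and 4 rose, against 36% and 33.7% of all genes. The genes that fell in both genotypes were 17, and Asns, Nupr1 and Eif2ak3 rose in both. The median log2 fold change of the members was -0.57 in WT and -0.48 in KO, and that of all tested genes -0.05 and -0.02. The libraries of both diets did not overlap, with HFMCD lower, for 12 members in WT and 18 in KO, where the same held for 24.1% and 27.3% of all genes. Since most tested genes were called in these comparisons, the sizes of the changes are given for each gene.

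**Figure D1:**
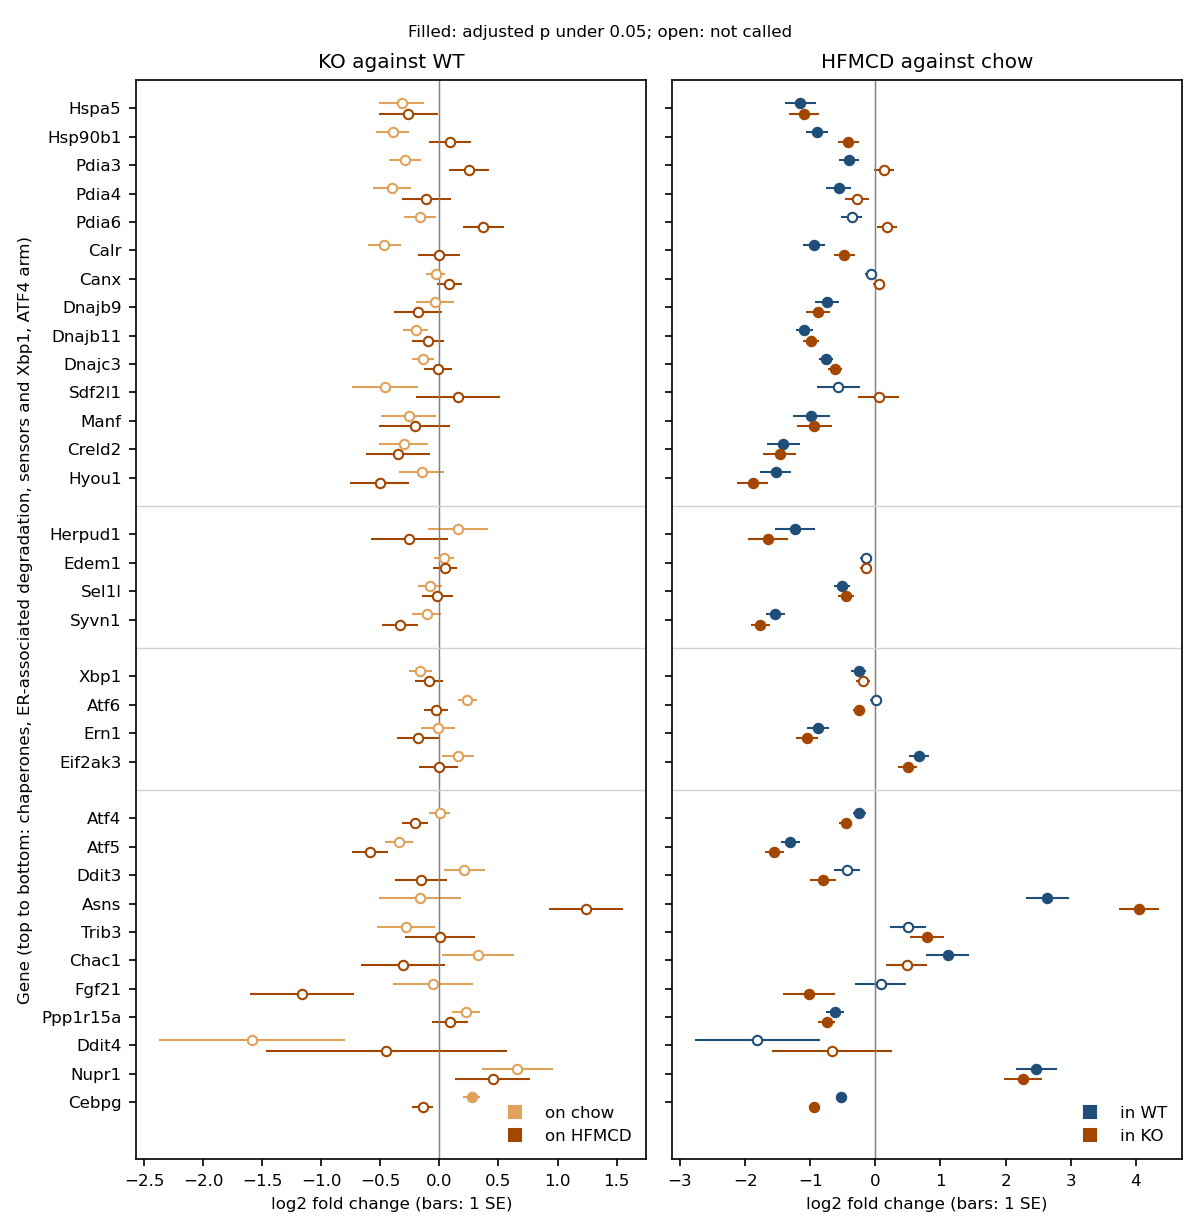
Log2 fold changes of all 33 genes (x axis, bars 1 SE) for KO against WT on each diet (left) and HFMCD against chow in each genotype (right), from edgeR; filled points passed an adjusted p of 0.05 over all tested genes. On the right, chaperones and degradation genes lie at or left of 0 with a few exceptions in KO, while Asns and Nupr1 lie above 2; on the left, Cebpg on chow is the filled point.

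Among the 14 chaperones and folding enzymes, 11 fell in WT with HFMCD (median log2 fold change -0.83), where 33.6% of all tested genes did. In KO 9 fell (median -0.55), where 36% of all tested genes did. Without WT chow replicates 5 and 6, which had the highest chaperone levels (an alternative chosen after seeing the data), 8 of 14 fell in WT with a median of -0.58. Of the 33 members, 15 fell and 5 rose in that fit, for which the shares of all tested genes are not given here. The log2 fold change in WT was then -1.16 for Hyou1, -1.01 for Creld2, -0.74 for Hspa5, -0.68 for Calr and -0.58 for Hsp90b1, all still called, while Manf lost its call (-0.57, adjusted p = 0.0554) and Sdf2l1 had -0.03. With all libraries, none rose in either genotype by edgeR or DESeq2, and none had a positive change at an unadjusted p under 0.05. Hyou1, Creld2 and Hspa5 had the largest falls among those called in both genotypes.

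Hyou1 (chromosome 9, 44379490 to 44392369, plus strand) encodes a large ER chaperone that serves as exchange factor for BiP. On chow it ran from 97.5 to 293 CPM in WT (median 163) and from 138 to 178 CPM in KO (median 167). On HFMCD it was 44.7, 65.8, 85.8 and 48.1 CPM in WT and 53.9, 43.2, 38.2 and 37.2 CPM in KO. Every HFMCD library was below every chow library of its genotype. The log2 fold change was -1.53 (SE 0.237, adjusted p = 1.4e-05) in WT, 2.89-fold lower, and -1.89 (SE 0.238, adjusted p = 7.9e-07) in KO, 3.70-fold lower.

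Creld2 (chromosome 15, 88819646 to 88826683, plus strand), a secreted ER protein long used as a readout of ER stress, ran from 25.3 to 69.3 CPM in WT on chow (median 41.2) and from 30.6 to 48.4 CPM in KO (median 34.8). It was 12.6, 18.1, 24.2 and 12.3 CPM in WT on HFMCD and 16.3, 12.2, 13.7 and 10.5 CPM in KO. The groups did not overlap in either genotype. Its log2 fold change was -1.41 (SE 0.255, adjusted p = 8.3e-05) in WT and -1.47 (SE 0.252, adjusted p = 3.9e-05) in KO.

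Hspa5 (chromosome 2, 34771970 to 34777547, plus strand) encodes BiP, the main ER chaperone, which also holds the sensors inactive. On chow it ran from 574 to 1585 CPM in WT (median 838) and from 654 to 863 CPM in KO (median 819). On HFMCD it was 309, 477, 642 and 333.4 CPM in WT, and in KO 437, 342, 351 and 336 CPM. WT replicate 3 on HFMCD lay above the lowest WT chow library, and in KO the diets did not overlap. The log2 fold change was -1.15 (SE 0.235, adjusted p = 2.7e-04) in WT and -1.09 (SE 0.229, adjusted p = 2.8e-04) in KO.

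The other chaperones moved less. Dnajb11, a cochaperone of BiP, stood at 116.8 CPM ± 25.7 (SD, n = 6) in WT on chow against 54.8 CPM ± 5.82 (SD, n = 4) on HFMCD. The KO values were 101.6 CPM ± 9.65 (SD, n = 7) against 51.2 CPM ± 2.71 (SD, n = 4), and the log2 fold changes -1.09 and -0.99. Manf, a secreted survival factor, fell by 0.98 in WT and 0.93 in KO on the log2 scale, Dnajb9, which brings BiP to IRE1, by 0.74 and 0.88, and Dnajc3, a further cochaperone, by 0.76 and 0.63. Calr, the lectin chaperone of the ER lumen, fell by 0.94 in WT and 0.48 in KO, and Hsp90b1, the ER form of HSP90, by 0.90 and 0.42. The KO call of Hsp90b1 was lost in 4 of 20 alternative analyses, among them without KO HFMCD replicate 1 (adjusted p = 0.0724) or 2 (adjusted p = 0.0873). Exons of Hsp90b1 share 415 bases, and those of Manf 312 bases, with genes on the other strand. The disulfide isomerases Pdia3 and Pdia4 fell in WT (-0.40 and -0.57) and were not called in KO (0.14 and -0.28). The WT call of Pdia3 was lost in 10 of 20 alternative analyses and that of Pdia4 in 6 of 20; without WT chow replicates 5 and 6 the values were -0.16 (adjusted p = 0.314) and -0.21 (adjusted p = 0.191). Pdia6, Sdf2l1 and Canx were called in neither: Pdia6 had -0.36 in WT and 0.18 in KO, Sdf2l1 -0.57 and 0.05, and Canx, the membrane partner of Calr, -0.07 and 0.05. In 4 of 20 alternative analyses Pdia6 was called lower in WT, and in 1 of 20 Pdia4 was called lower in KO. Canx levels lay between 278.7 and 451.1 CPM in all 21 libraries.

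Of the 4 genes of ER-associated degradation, Syvn1, Herpud1 and Sel1l fell in both genotypes and Edem1 in neither. Syvn1 (chromosome 19, 6046576 to 6053712, plus strand), the ubiquitin ligase HRD1 of the retrotranslocation complex, ran from 71.7 to 136 CPM in WT on chow (median 100.8) and from 79.9 to 121 CPM in KO (median 93.6). On HFMCD it was 32.5, 32.9, 42.6 and 33.4 CPM in WT and 31.3, 28.4, 26.0 and 26.6 CPM in KO. The gap between the diets was wide in both genotypes, with log2 fold changes of -1.54 (SE 0.146, adjusted p = 5.7e-09) and -1.76 (SE 0.146, adjusted p = 3.5e-10). Exons of Syvn1 share 91 bases with Mrpl49 on the other strand, and the strand setting of the counting is not given in the sources used here.

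Herpud1 (chromosome 8, 94386438 to 94395377, plus strand) anchors that complex in the ER membrane and answers to both arms. It ran from 233 to 537 CPM in WT on chow (median 445) and from 350 to 715 CPM in KO (median 382). On HFMCD its levels were 121, 179, 219 and 180 CPM in WT and 113, 262, 76.6 and 134 CPM in KO. All HFMCD libraries were below the chow libraries of their genotype, with log2 fold changes of -1.23 (SE 0.309, adjusted p = 0.00195) and -1.64 (SE 0.309, adjusted p = 1.1e-04). Sel1l (chromosome 12, 91806043 to 91849157, minus strand), the adaptor of the ligase, ran on chow from 127 to 243 CPM in WT mice (median 163) and from 132 to 171 CPM in KO mice (median 167). Its HFMCD levels were 130, 116, 116 and 116 CPM in WT, and in KO 120, 129, 104.4 and 118 CPM. WT replicate 1 on HFMCD lay within the WT chow range, and in KO the diets did not overlap. The log2 fold changes were -0.51 (SE 0.121, adjusted p = 8.0e-04) and -0.45 (SE 0.117, adjusted p = 0.0016). Edem1, a lectin that hands over misfolded glycoproteins, had -0.15 and -0.14.

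**Figure D2:**
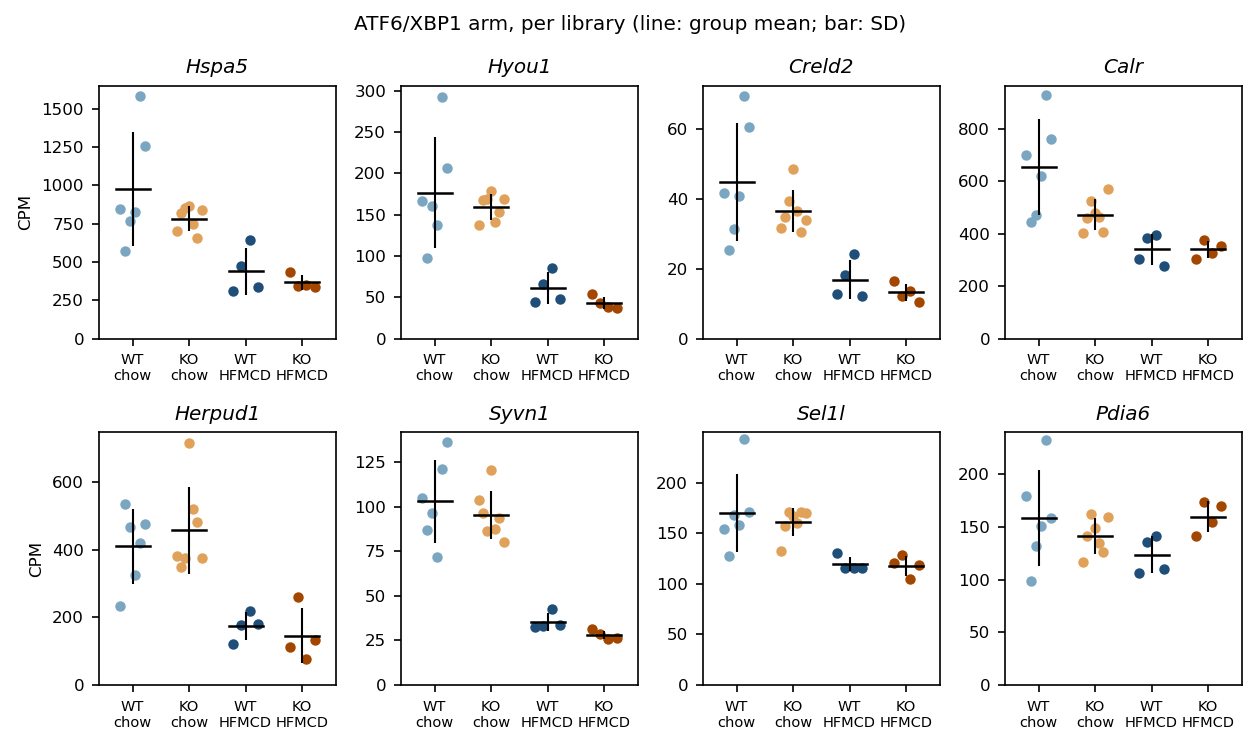
CPM per library (points) for 8 genes of the ATF6/XBP1 arm in the 4 groups, with group means (lines) and SD (bars). Hyou1, Creld2, Herpud1 and Syvn1 show HFMCD libraries below the chow libraries of their genotype, and the WT chow libraries of Hspa5 reach from 574 to 1585 CPM.

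The genes of stress sensing went in different directions with HFMCD. Ern1 (chromosome 11, 106394650 to 106487852, minus strand), the IRE1 sensor, ran from 47.0 to 82.9 CPM in WT on chow (median 63.2) and from 51.9 to 83.2 CPM in KO (median 63.2). It was 30.4, 27.8, 36.5 and 43.6 CPM on HFMCD in WT and 37.2, 25.1, 29.6 and 30.5 CPM in KO. No HFMCD library reached the chow range, and the log2 fold change was -0.88 (SE 0.168, adjusted p = 1.1e-04) in WT and -1.05 (SE 0.166, adjusted p = 9.3e-06) in KO.

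Eif2ak3 (chromosome 6, 70844515 to 70905245, plus strand), the PERK kinase, went the other way. Its chow levels ran from 9.81 to 22.5 CPM in WT (median 14.7) and from 15.8 to 21.6 CPM in KO (median 16.6). On HFMCD they were 23.1, 24.3, 28.3 and 24.1 CPM in WT and 30.1, 22.1, 22.1 and 25.03 CPM in KO. Every HFMCD library was above every chow library of its genotype, with log2 fold changes of 0.67 (SE 0.151, adjusted p = 5.7e-04) and 0.50 (SE 0.146, adjusted p = 0.00424). Exons of Eif2ak3 share 485 bases with Gm43292 on the other strand. Xbp1 fell in WT (-0.26, adjusted p = 0.0457) and was not called in KO (-0.18), and Atf6 fell in KO (-0.26, adjusted p = 0.0149) and was not called in WT (0.01). The Xbp1 call in WT was lost in 15 of 20 alternative analyses and that of Atf6 in KO in 3 of 20.

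In the ATF4 arm, 3 of 11 genes rose and 4 fell in WT, where 29% of all tested genes rose and 33.6% fell. In KO 3 rose and 6 fell, where the shares of all genes were 33.7% and 36%. The median log2 fold change of the arm was -0.25 in WT and -0.67 in KO. Asns (chromosome 6, 7675169 to 7693254, minus strand), asparagine synthetase and a standard target of ATF4, had the largest change. On chow it ran from 0.320 to 0.727 CPM in WT (median 0.465) and from 0.298 to 0.714 CPM in KO (median 0.365), which is 5 to 16 reads per library. On HFMCD it was 1.94, 3.79, 3.91 and 2.72 CPM in WT and 8.94, 11.3, 3.11 and 5.89 CPM in KO. Every HFMCD library was above every chow library, with a log2 fold change of 2.64 (SE 0.328, adjusted p = 2.8e-07) in WT, 6.23-fold, and 4.04 (SE 0.309, adjusted p = 7.1e-11) in KO, 16.5-fold.

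Nupr1 (chromosome 7, 126623249 to 126630861, minus strand) encodes a small stress-induced nuclear protein. It ran from 0.480 to 1.51 CPM in WT on chow (median 1.06) and from 0.655 to 2.55 CPM in KO (median 1.29). On HFMCD the levels were 5.69, 6.10, 5.65 and 4.62 CPM in WT and 6.43, 7.54, 7.10 and 9.06 CPM in KO. The diets did not overlap, and the log2 fold change was 2.47 (SE 0.316, adjusted p = 4.5e-07) in WT and 2.26 (SE 0.288, adjusted p = 2.9e-07) in KO. Chac1, which degrades glutathione, rose in WT (1.11, SE 0.332, adjusted p = 0.00569) and had 0.48 (adjusted p = 0.185) in KO. Trib3, a pseudokinase that restrains the response, had 0.50 (adjusted p = 0.117) in WT, where 3 of 20 alternative analyses called it higher. It rose in KO (0.79, SE 0.264, adjusted p = 0.0119), a call that was lost without KO HFMCD replicate 2 (0.40). That library had the highest level of Trib3, Asns and Herpud1 in its group and stood apart within the group on circadian genes. There 12 clock genes summed to 478 CPM, against 193 to 303 CPM in the other KO HFMCD libraries. Dbp, a clock output gene, was 81.6 CPM against 5.25 to 15.9 CPM. On chow the clock sum also varied, from 274 to 490 CPM in WT and from 308 to 520 CPM in KO. The part of circadian differences in the results was not tested.

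Several other genes of the ATF4 arm were lower on HFMCD. Atf5 (chromosome 7, 44812256 to 44816658, minus strand), a transcription factor that is itself made under eIF2alpha phosphorylation, ran from 823 to 1157 CPM in WT on chow (median 985) and from 605 to 881 CPM in KO (median 753). On HFMCD it was 389, 405, 441 and 336.9 CPM in WT and 339, 263, 270 and 177 CPM in KO. Both genotypes showed a gap between the diets, with log2 fold changes of -1.31 (SE 0.146, adjusted p = 5.3e-08) and -1.55 (SE 0.145, adjusted p = 1.9e-09). Exons of Atf5 share 164 bases with Il4i1 and Nup62 on the other strand.

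Cebpg (chromosome 7, 35046422 to 35056573, minus strand), a partner with which ATF4 can bind DNA, ran from 75.9 to 92.1 CPM in WT on chow (median 82.3) and from 91.8 to 108.3 CPM in KO (median 100.8). On HFMCD it was 48.0, 64.9, 60.7 and 58.4 CPM in WT and 53.3, 49.9, 56.6 and 50.4 CPM in KO. The HFMCD libraries lay below the chow libraries of their genotype, with log2 fold changes of -0.52 (SE 0.0836, adjusted p = 9.3e-06) and -0.94 (SE 0.0828, adjusted p = 7.3e-10). Ppp1r15a, the stress-induced phosphatase subunit GADD34, fell by 0.61 in WT and 0.75 in KO on the log2 scale, and Atf4 itself by 0.25 and 0.46. The call of Atf4 in WT was lost in 14 of 20 alternative analyses.

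Ddit3, the factor CHOP, fell in KO (-0.80, adjusted p = 0.00121). It had -0.43 (adjusted p = 0.0683) in WT, where 3 of 20 alternative analyses called it lower. The annotation holds 2 entries under this symbol. Fgf21, a hormone that the liver releases under nutrient stress, was highly variable: on HFMCD it was 39.9, 18.6, 25.01 and 12.6 CPM in WT, and its KO libraries lay between 7.86 and 14.9 CPM. Fgf21 fell in KO (-1.03, SE 0.4, adjusted p = 0.0295), a call that was lost in 7 of 20 alternative analyses, and had 0.08 in WT. Ddit4, an inhibitor of mTORC1, reached 207 CPM in WT chow replicate 6, against 4.11 to 51.7 CPM in the other 5 WT chow libraries, and was called in none of the edgeR comparisons.

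**Figure D3:**
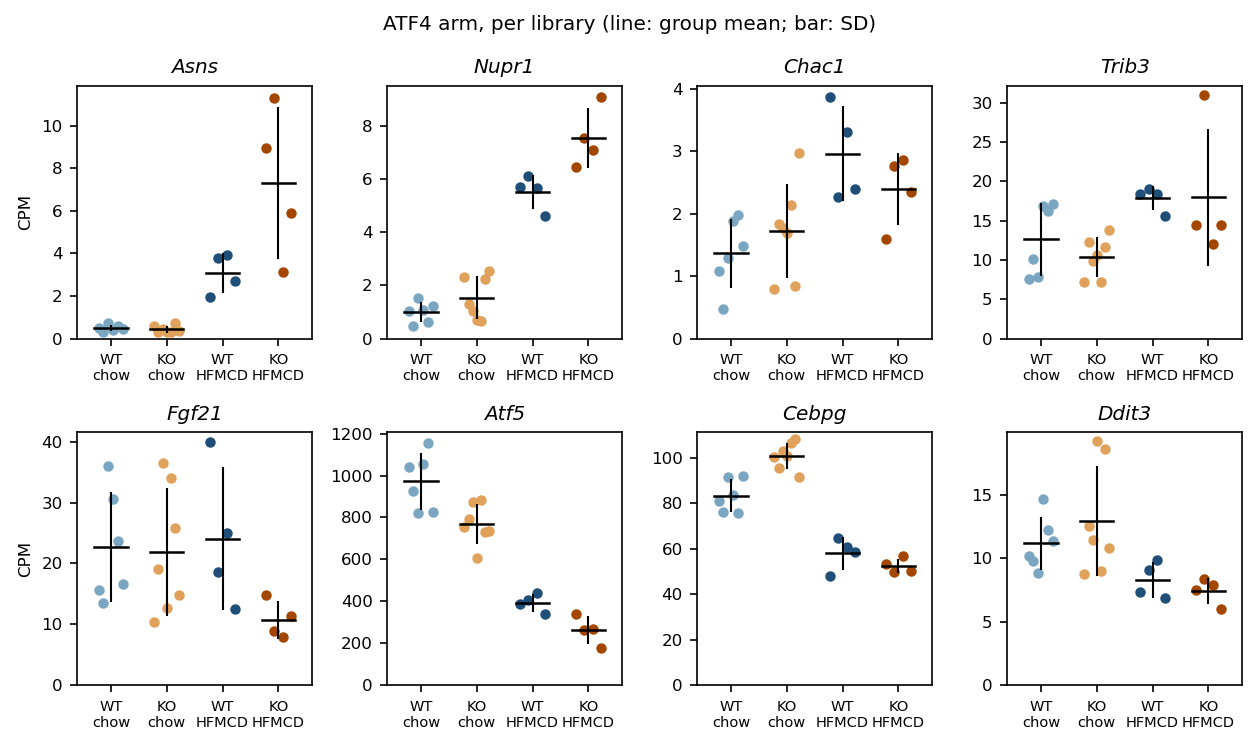
CPM per library (points) for 8 genes of the ATF4 arm in the 4 groups, with group means (lines) and SD (bars). Asns and Nupr1 are near 0 on chow and higher on HFMCD, Atf5 and Cebpg are lower on HFMCD, and Fgf21 overlaps between most groups.

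Levels can be compared between genes only per length. On chow in WT the members' levels ran from 0.181 CPM per kilobase of exon for Asns to 488 for Atf5, followed by Hspa5 (231), Calr (227) and Hsp90b1 (220). The gap from Hspa5 to Hsp90b1 was smaller than the SD of either gene (88.1 and 67.0). On HFMCD in WT, Asns reached 1.13 CPM per kilobase and Nupr1 2.19, against 12.3 for Creld2.

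Diet changes are given here beside the response elements, as a description of few genes in which no difference between genes with and without an element was tested. The 10 ATF6/XBP1 arm genes with ERSE or ERSE-II had a median log2 fold change of -1.02 in WT and -0.81 in KO, and 8 of 10 fell in each. The 6 arm genes that have a promoter entry and neither element in the window had medians of -0.54 and -0.21, with 4 and 2 called lower. Hyou1 (-1.53 and -1.89) and Manf (-0.98 and -0.93) have no promoter entry and are in neither set. Canx and Pdia6 carry ERSE and were not called in either genotype. Among 18 other tested genes with these elements, 8 fell and 4 rose in WT, with a median of -0.46, and 9 fell and 4 rose in KO, with a median of -0.44. All 11311 tested genes with a promoter entry had medians of -0.02 and 0.02. Of these genes, 31.2% fell and 30.5% rose in WT, and 33.3% fell and 35.2% rose in KO.

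In the ATF4 arm, the 5 genes with a CARE match in the window held all the risers: Asns, Nupr1 and Chac1 in WT and Asns, Nupr1 and Trib3 in KO. Sequence outside the window was not searched. The median log2 fold change of the 5 genes was 1.11 in WT and 0.79 in KO, and Fgf21 was the one called lower, in KO. Another 6 had no CARE match in the window (Atf4, Atf5, Cebpg, Ddit3, Ddit4 and Ppp1r15a). Of these, none rose, 4 fell in WT and 5 in KO, with medians of -0.57 and -0.77. None of these 6 had a positive change at an unadjusted p under 0.05. Among the other tested genes with CARE, 34.5% rose in WT and 27.1% fell, and 37.2% rose and 29.9% fell in KO. Over all tested genes with a promoter entry, 30.5% rose and 31.2% fell in WT, and 35.2% rose and 33.3% fell in KO. Herpud1 carries CARE together with ERSE-II and fell with the ATF6/XBP1 arm.

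**Figure D4:**
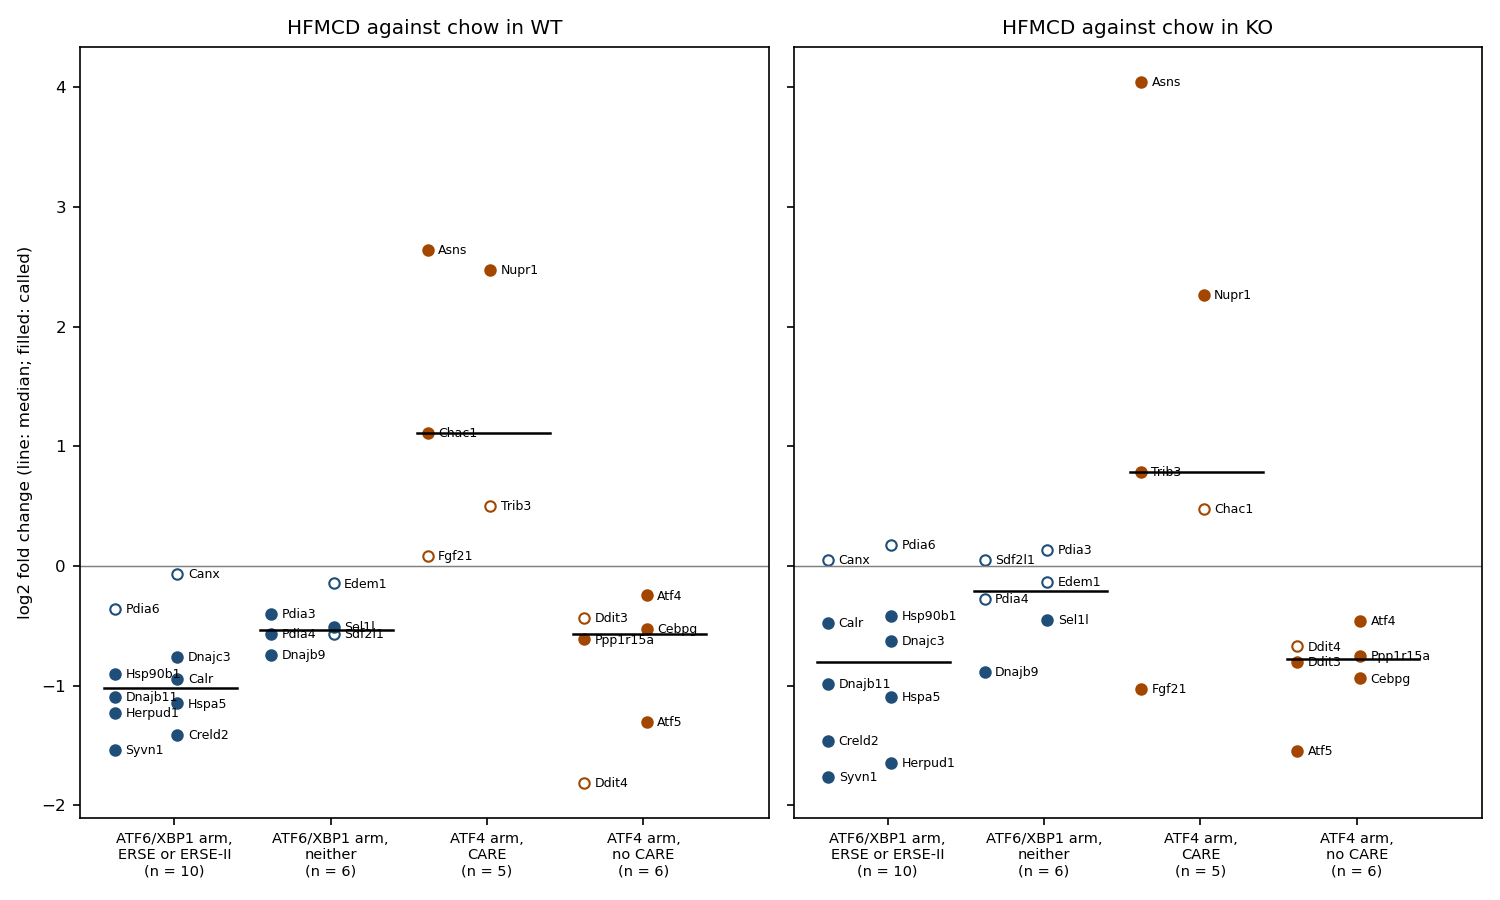
Log2 fold changes of HFMCD against chow (y axis) in WT and KO for genes of both arms, split by the response elements in their promoter windows; filled points were called and lines are medians. Genes with ERSE or ERSE-II center near -1 in WT, and the ATF4 arm genes above 0 all carry CARE.

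Levels of cell type markers differed with diet at the same time. Summed levels of 12 macrophage markers were 279.5 to 762 CPM on chow and 2221 to 2808 CPM on HFMCD, and 11 of 12 rose in each genotype. Summed levels of 10 stellate cell markers were 214 to 509 CPM on chow and 1126 to 1650 CPM on HFMCD, with 8 of 10 called higher in each genotype. Of all tested genes, 29% rose in WT and 33.7% in KO. Of 12 hepatocyte markers, 6 fell in WT and 7 in KO, where 33.6% and 36% of all tested genes did. Their median log2 fold changes were -0.42 and -0.44, against -0.83 and -0.55 for the chaperones. Markers of cells rich in ER were low in level. Summed levels of 12 acinar markers were 4.88 to 7.20 CPM on chow and 7.46 to 9.85 CPM on HFMCD. Of these 12, 2 were at 0 in every library and only 2 had enough reads to be tested. Cela1, which held most of the reads, was the 1 called, higher in both genotypes. The 9 plasma and B cell markers summed to 6.43 to 34.4 CPM on chow and 23.4 to 48.8 CPM on HFMCD. Of the 7 tested, 3 rose in WT, and 1 rose and 1 fell in KO. In whole tissue, fewer cells of a type and less RNA per cell cannot be told apart, and the part of cell composition in these changes was not tested.

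Among 25 further ATF4 targets, 24 were tested. In WT 12 rose and 3 fell, where 29% and 33.6% of all tested genes did. In KO 13 rose and 5 fell, where 33.7% and 36% did. The medians were 0.64 in WT and 0.51 in KO. Slc7a11, the cystine transporter subunit, went from 1 read in all 6 WT chow libraries to 347 reads in 4 WT HFMCD libraries, a ratio of 464 per counted read (exact 95% interval 82.7 to 1.84e+04, counting error only). In KO it went from 2 reads to 382, a ratio of 288 (79.2 to 2.39e+03). Atf3, a stress-induced repressor, rose by 3.75 in WT and 3.13 in KO on the log2 scale: its WT level was 2.38 CPM ± 0.523 (SD, n = 6) on chow and 32.1 CPM ± 6.20 (SD, n = 4) on HFMCD. The serine synthesis enzyme Psat1 (2.92 in WT, 3.37 in KO, log2) and the mitochondrial PEP carboxykinase Pck2 (1.21 and 1.39) rose as well. Slc38a2, an amino acid transporter (-1.49 and -1.73), Slc3a2 (-0.23 and -0.25) and Sesn2 (-0.30 and -0.42) fell in both genotypes, and Gdf15 (-1.01) fell in KO. The WT calls of Slc3a2 and Sesn2 were lost in 13 and 16 of 20 alternative analyses, and the KO call of Slc3a2 in 8. Macrophage markers also rose on HFMCD, and the part of macrophages in these changes was not tested.

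The wider ER list was called about as often as genes in general, or less. Of 30 further ER genes, 5 rose and 10 fell in WT, where 29% and 33.6% of all tested genes did. In KO 8 rose and 9 fell, where 33.7% and 36% did, and the medians were -0.14 and -0.10. Dnajc10, a reductase of the degradation pathway (0.71 and 0.94), Edem2 (0.47 and 0.51), Wfs1 (0.51 and 0.80) and Ssr3 (0.25 and 0.43) rose in both genotypes. Vcp, the ATPase that pulls proteins out of the ER (-0.75 and -0.69), and Fkbp14, a collagen folding enzyme (-0.94 and -1.26), fell in both. Sil1 (-0.45 and -0.36), Erp44 (-0.42 and -0.37), Ero1lb (-0.82 and -1.03) and Derl2 (-0.45 and -0.48) fell in both as well. Among 8 related factors, Creb3l1 rose (2.33 and 1.82) and Creb3 (-0.58 and -0.59) and Creb3l3 (-0.36 and -0.33) fell in both genotypes, and Mbtps2 (0.32) and Rtcb (0.44), the ligase of Xbp1 splicing, rose in KO.

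Among 8 regulators of eIF2alpha, the kinase PKR (Eif2ak2; 0.43 and 0.52), eIF2alpha itself (Eif2s1; 0.22 and 0.53), Nck1 (0.31 and 0.30) and Ppp1cc (0.26 and 0.29) rose in both genotypes. The constitutive phosphatase subunit Ppp1r15b (-0.52 and -0.64) and Eif2b5 (-0.49 and -0.39) fell in both, and the amino acid sensing kinase GCN2 (Eif2ak4; -0.38) fell in KO. Of 12 tRNA synthetases, 2 rose and 5 fell in WT, where 29% and 33.6% of all tested genes did. In KO 2 rose and 4 fell, where 33.7% and 36% did. Gars (0.38 and 0.69) and Wars (0.28 and 0.35) rose, and Mars (-0.64 and -0.82), Aars (-0.47 and -0.68) and Yars (-0.26 and -0.38) fell in both genotypes, with Nars (-0.20) lower in WT and Cars (-0.41) in KO. In WT the calls of Eif2s1, Nars and Yars were lost in 7, 8 and 11 of 20 alternative analyses. The cytosolic heat shock list was lower: 8 of 11 fell in WT and 9 in KO, where 33.6% and 36% of all tested genes did. Hsph1 had -2.31 and -2.58, Hspa8 -1.01 and -1.02, and Dnaja1 -0.71 and -1.01. Hsp90ab1 (-0.85 and -0.52) and Bag3 (-0.69 and -0.72) also fell in both. One rose in each genotype, Hspa1a in WT (1.23) and Hspa4l in KO (0.72), and Hspa1a is uncertain because reads can be split with its near-identical copy Hspa1b. In the list of 8 mitochondrial chaperones and proteases, 5 fell in WT and 2 in KO, where 33.6% and 36% of all tested genes did. Among them were Hspe1 (-1.04 and -0.53) and Clpp (-0.91 and -0.72) in both, and Hspa9 (-0.55) and Hspd1 (-0.54) in WT.

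Loss of Mboat7 on chow moved few members. Cebpg rose (88 of all tested genes, 0.561%, were called higher and 1.61% lower) and no member fell by edgeR, where 5 members were lower at an unadjusted p under 0.05 and DESeq2 called 1 lower (Calr). In either direction 8 of 33 members had an unadjusted p under 0.05, as did 17.9% of all tested genes. The mean Cebpg level on chow was 83.4 CPM ± 7.21 (SD, n = 6) for WT, against 100.9 CPM ± 5.76 (SD, n = 7) for KO. KO replicate 7 lay within the WT range, just below the highest WT library. The log2 fold change was 0.27 (SE 0.0711, adjusted p = 0.0433). The call was lost in 16 of 23 alternative analyses, 10 of them with a single library left out, and the log2 fold change stayed between 0.26 and 0.32.

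All 14 chaperones were lower in KO than in WT on chow, with a median log2 fold change of -0.27 where that of all genes was 0.01, but none was called. The lowest was Calr (-0.47, SE 0.139, adjusted p = 0.0774), which ran from 444 to 932 CPM in WT (median 660) and from 404 to 571 CPM in KO (median 465). Calr, Hsp90b1, Pdia3 and Pdia4 had an unadjusted p under 0.05. The size of the difference depended on which WT libraries were kept. WT chow replicates 5 and 6 had the highest mean log2 CPM of the chaperones in the series (8.16 and 7.83). Without both, 6 of 14 chaperones were lower and the median was 0.03. These 2 were chosen after seeing the data because they were high, so leaving them out had to shrink the difference. WT chow replicate 2, the lowest of its group for all 14 chaperones, pulls the other way. Without replicate 5 alone, 11 of 14 were lower, with a median of -0.10, and without replicate 6 alone 13 of 14, with a median of -0.17.

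Among the chow mice of this series, the chaperones had a wider spread in WT than in KO. The SD of log2 CPM was larger in WT for 14 of 14 chaperones, with medians of 0.417 in WT and 0.163 in KO. The same held for 61.1% of all tested genes. The chaperones varied together (mean Pearson r 0.844 in the 13 chow libraries, group means removed), so the 14 are not separate observations. The SD was also larger in WT for 4 of 4 degradation genes and 4 of 4 sensing genes, and no test of the difference in spread was made. Replicate 5 was the highest of the 6 WT chow libraries for 13 of 14 chaperones, replicate 6 for the remaining one (Dnajb9), and replicate 2 was the lowest for all 14. Sdf2l1, a partner of the BiP cycle, ran from 8.10 to 42.0 CPM in WT, a 5.18-fold range, and from 11.5 to 21.3 CPM in KO, a 1.86-fold range. In the ATF4 arm the SD was larger in WT for 6 of 11 genes. Replicate 6 also held the highest WT chow levels of Ddit4 (207 CPM), Ppp1r15a (24.9 CPM) and the summed heat shock list (4657 CPM, against 2420 to 3401 CPM in the other 5), and replicate 5 was among the libraries with mucosal RNA (a marker sum of 33.4 CPM). Their part in the spread was not tested.

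**Figure D5:**
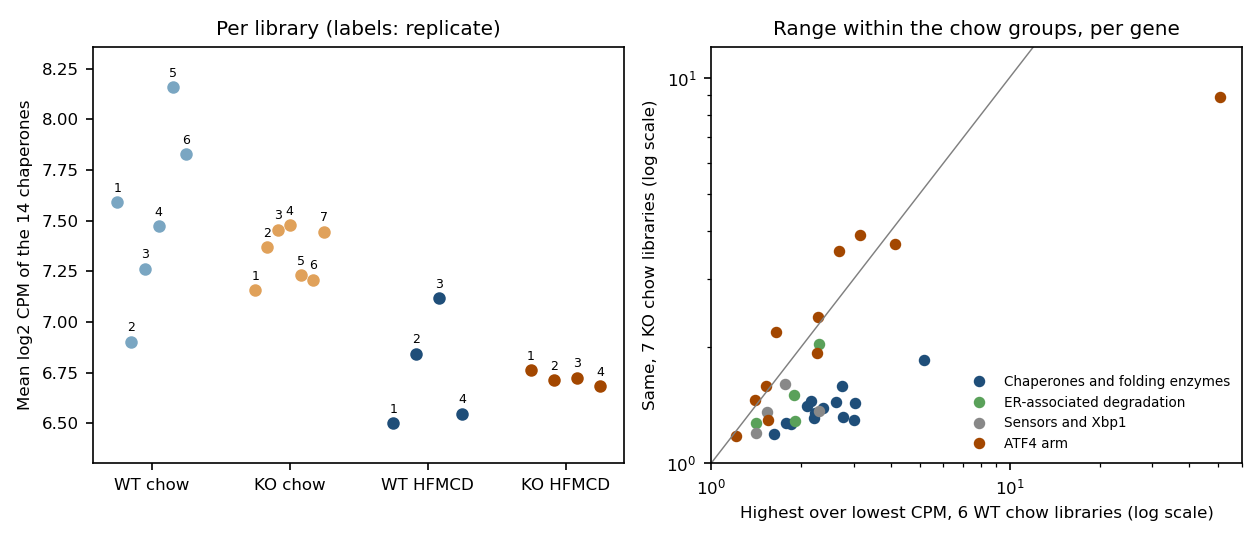
Left, mean log2 CPM of the 14 chaperones in each library by group, labelled with the replicate; right, the highest over the lowest CPM of each of the 33 genes within the WT chow group (x axis) and within the KO chow group (y axis), both on log scales, with the line of equal ranges. WT chow libraries reach from 6.90 to 8.16 and KO chow libraries from 7.16 to 7.48, and the chaperones lie below the line.

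Within groups, chaperone levels varied together from library to library. After each group's mean was removed, pairs of chaperones had a mean Pearson r of 0.779 (Spearman 0.658) over 21 libraries, which share depth and scaling within a library. All pairs of tested genes averaged 0.00145. Without WT chow replicates 2 and 5 the mean was 0.582, in the 13 chow libraries alone 0.844, and in the 8 HFMCD libraries 0.559. Xbp1 followed the chaperones (mean r 0.76), as did Eif2ak3 (0.634) and Sel1l (0.617), and Syvn1 did so less (0.475). Herpud1 did not (-0.008), although it fell with them on HFMCD. These means with the chaperones were taken over all 21 libraries only. Among the 4 sensing genes the mean r was 0.429, 0.253 without WT chow replicates 2 and 5, and 0.116 on HFMCD. For the 4 degradation genes the same values were 0.237, 0.138 and -0.004. Genes of the ATF4 arm had a mean r of 0.0609 between each other, and Chac1 (0.522) and Trib3 (0.374) had the highest means with the chaperones. Per chow library, Asns had 5 to 16 reads, Nupr1 9 to 56 and Chac1 9 to 65. The part of counting error in these low correlations was not tested.

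On HFMCD, no member was called between KO and WT by edgeR, where 0.319% of all genes were called. Of the 33 members, 5 had an unadjusted p under 0.05 (Asns, Atf5, Fgf21, Pdia6 and Syvn1), where 9.96% of all genes did, and DESeq2 and limma-voom with sample quality weights each called Asns higher and Atf5 lower. On this diet the Asns mean of WT mice was 3.09 CPM ± 0.938 (SD, n = 4), that of KO mice 7.32 CPM ± 3.58 (SD, n = 4), and the log2 fold change 1.24 (SE 0.315, adjusted p = 0.0939). KO replicates 1, 2 and 4 were above all WT libraries and replicate 3 was within them; without replicate 3, edgeR called it. The Atf5 mean was 393 CPM ± 43.3 (SD, n = 4) for WT, against 262 CPM ± 66.6 (SD, n = 4) for KO, with a log2 fold change of -0.58 (SE 0.153, adjusted p = 0.109), with 1 KO library just above the lowest WT library.

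For 3 members the groups did not overlap on HFMCD. Pdia6 was 106.2, 135, 141.5 and 110 CPM in WT and 141.7, 173, 154 and 170 CPM in KO (0.37, SE 0.174, adjusted p = 0.484), its lowest KO library barely above the highest WT library. Nupr1 was higher in every KO than in every WT library (0.45, SE 0.317, adjusted p = 0.697), and Syvn1 lower (-0.33, SE 0.154, adjusted p = 0.477). Among all tested genes, 4.96% did not overlap with KO higher and 3.66% with KO lower. Fgf21 had a mean of 24.0 CPM ± 11.7 (SD, n = 4) for WT and, with overlapping libraries, 10.7 CPM ± 3.12 (SD, n = 4) for KO (-1.16, SE 0.437, adjusted p = 0.357). The marker sum of bile duct cells lay between 45.4 and 54.7 CPM for WT and between 81.0 and 113 CPM for KO on HFMCD, and its part was not tested.

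Averaged over both diets, Atf5 was lower in KO by 0.46 on the log2 scale (-0.46, SE 0.0972, adjusted p = 0.0292), where 0.67% of all genes were called lower and 0.453% higher. On chow the log2 fold change of Atf5 was -0.34 (SE 0.12, adjusted p = 0.133), with means of 972 CPM ± 136 (SD, n = 6) and 767 CPM ± 95.3 (SD, n = 7). On both diets the ranges of WT and KO libraries overlapped, and the call was lost in 7 of 30 alternative analyses. No other member was called, and 6 had an unadjusted p under 0.05 (Asns, Atf5, Calr, Fgf21, Nupr1 and Syvn1), where 16.5% of all genes did. Among the further genes, Creb3l3, a liver transcription factor of fasting metabolism, was lower in KO over both diets (-0.27, SE 0.066, adjusted p = 0.0455). On chow, Atf3 rose in KO (0.61, SE 0.165, adjusted p = 0.0495), and Shmt2 (-0.32, adjusted p = 0.0388), Hspd1 (-0.46, adjusted p = 0.0455) and Hspe1 (-0.51, adjusted p = 0.0317) fell. These calls were lost in 15 (Atf3), 13 (Shmt2), 14 (Hspd1) and 11 (Hspe1) of 23 alternative analyses, and that of Creb3l3 in 17 of 30. Without WT chow replicates 5 and 6 the values were 0.74 (adjusted p = 0.16) for Atf3, -0.25 (adjusted p = 0.28) for Shmt2, -0.22 (adjusted p = 0.4) for Hspd1, -0.33 (adjusted p = 0.253) for Hspe1 and -0.22 (adjusted p = 0.104) for Creb3l3. Hspd1 and Hspe1 form the mitochondrial chaperonin, and Shmt2 makes mitochondrial glycine.

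The KO effect was not shown to differ between the diets for any member or any other gene (edgeR, 0 called, 0% of all tested genes). At an unadjusted p under 0.05 there were 5 members: Asns, Cebpg, Hsp90b1, Pdia3 and Pdia6, where 10.1% of all genes did. DESeq2 called Cebpg and limma-voom called none. For Cebpg the difference of log2 fold changes was -0.42 (SE 0.115, adjusted p = 0.189, 95% interval -0.66 to -0.17), and for Asns 1.40 (SE 0.469, adjusted p = 0.285, 95% interval 0.42 to 2.39). For Hspa5 it was 0.06 (SE 0.315) and the 95% interval -0.61 to 0.72.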

How the data were processed

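Bulk RNA-seq was deposited as raw gene counts for 21 libraries. Per the submitters' processing notes, CASAVA 2.17, STAR 2.6.1d and featureCounts 1.6.1 were used with GRCm38; the annotation release and strand setting are not given in the sources used here. From these deposited counts, 15677 genes passed edgeR's expression filter. After TMM scaling, 1 quasi-likelihood model of the 4 groups was fitted (edgeR 4.0.16, R 4.3.3), with Benjamini-Hochberg adjustment over all tested genes and a threshold of 0.05. The script was tested on simulated data. Alternatives were DESeq2 1.42.0, limma-voom (limma 3.58.1), other scalings and filters, the compared groups only, and left-out libraries. Gene positions and exon lengths came from GENCODE, promoters from RefSeq. Members and lists were chosen with earlier results of these data known. Values in every library are given for members called in a KO comparison and for up to 3 per role with the largest diet changes called in both genotypes; of other lists, up to 4 called genes per direction with the smallest p are named.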

Additional observations from a re-analysis of the deposited data

Results flagged for a closer look

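Within groups of 4 to 7 libraries, 132 sets of values were searched for a library far from the others. The search found 9, where chance gives about 5% of sets. That count is close to the chance share, and the sets are not independent because genes vary together within libraries. Among chaperones, Hspa5 was 437 CPM in KO HFMCD replicate 1 (next 351 CPM), and Sdf2l1 was 42.0 CPM in WT chow replicate 5 (next 20.6 CPM) and 21.3 CPM in KO chow replicate 4 (next 15.6 CPM). Among degradation genes, Sel1l was low in KO chow replicate 1 (132 CPM, next 157 CPM) and high in WT HFMCD replicate 1 (130 CPM, next 116 CPM), and Syvn1 was 42.6 CPM in WT HFMCD replicate 3 (next 33.4 CPM). In the ATF4 arm, Trib3 was 30.9 CPM in KO HFMCD replicate 2 (next 14.5 CPM). WT chow replicate 6 held both remaining values, Ppp1r15a at 24.9 CPM (next 18.2 CPM) and Ddit4 at 207 CPM (next 51.7 CPM).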

How the results depend on the processing

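The diet counts stayed within 1.5 times their values under every alternative: 15 to 22 members fell and 4 to 5 rose in WT, and 17 to 21 fell and 3 to 4 rose in KO. KO counts on chow rested on single genes. Cebpg was the 1 member called higher, and the count was 0 with limma-voom, no filter on low counts, the compared groups only, without KO chow replicates 1 and 7, without the 4 chow libraries rich in Dmbt1, and without WT chow replicates 5 and 6 (chosen after seeing the data); with single libraries left out it was 0 to 1. Members called lower numbered 1 with DESeq2 (Calr), and 0 to 1 with single libraries left out (1 without WT chow replicate 2 or 3). On HFMCD, DESeq2 and limma-voom each called 1 member higher (Asns) and 1 lower (Atf5), and leaving out libraries gave 0 to 1 higher (1 without KO HFMCD replicate 3). For the difference between diets, DESeq2 called 1 lower (Cebpg). Averaged over diets, Atf5 gave a count of 0 without KO chow replicates 1 and 7 and without the 4 chow libraries, and 0 to 1 with single libraries left out (0 without WT HFMCD replicate 1, 2 or 3 or KO HFMCD replicate 2 or 4). The cause was not tested.

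Counts over all genes moved more. On chow, 88 genes were higher and 252 lower in KO, but 233 and 482 with DESeq2, 31 and 84 with limma-voom, 1 and 1 with the compared groups only, and 0 and 1 without WT chow replicates 5 and 6. On HFMCD, 35 were higher and 15 lower, but 110 and 75 with DESeq2 and 240 and 88 with limma-voom. Averaged over diets, the 71 genes higher in KO became 237 with DESeq2, and the lower genes (0.67% of all) 376. For the difference between diets, 0 and 0 became 47 and 53 with DESeq2 and 65 and 19 without KO chow replicates 1 and 7. Of 6481 single-gene values, 6048 kept direction and side of the threshold, 229 lost a call and 24 gained one. In 180, called in neither setting, the sign changed, and no called value reversed. No paired analysis was possible because animal numbers are unique to each library. Low counts limit Asns, Nupr1 and Chac1 on chow.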
